A study of Mus musculus with 1989 samples.

Results

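Thymosins and actin regulators were examined in mouse thymocytes through 7 genes, Tmsb10, Tmsb4x, Pfn1, Cfl1, Actb, Actg1 and Coro1a. All 7 were among the 8846 genes of the single-cell RNA sequencing (scRNA-seq) table. Tmsb10 was chosen by how much higher it is in late thymocytes in this same table, so its late level is given as a description. The other members were named with it as partners in actin dynamics, when earlier results of these data were known. Cells came from thymi of male C57BL/6 mice labelled as 7 weeks old, with no treatment or mutant allele in any group. One droplet library held 1993 cells, read from the 3′ ends of transcripts. Single-cell ATAC sequencing (scATAC-seq), which reads open chromatin, covered cells sorted as CD4 (119 cells), CD8 (116 cells), DN (182 cells) and DP (125 cells). No animal was named for a cell, so the library and each sort counted as 1 sample, and no test between classes or sorts was possible. SDs below are over cells. Intervals are exact 95% intervals and cover counting error only.

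Actin monomers join into filaments that give a cell its shape and carry it as it crawls. The beta-thymosins encoded by Tmsb10 and Tmsb4x hold monomers in reserve, profilin (Pfn1) hands them to growing filament ends and cofilin (Cfl1) cuts and disassembles old filaments. Actb and Actg1 encode both cytoplasmic actins, and Coro1a encodes coronin 1A, a filament-binding protein of blood cells that mature T cells need for survival and for leaving the thymus. Thymocytes move from the DN through the ISP and DP stages to the CD4 and CD8 single-positive (SP) stages, and their migration speed and territory change after positive selection.

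Sequences are shown for the stretches on which the chromatin results below turn, which are the Pfn1 promoter and the centre of the most open peak downstream of Tmsb10. The stretch before the first Tmsb10 start is shown for context, since the centre of the Tmsb10 promoter peak lay 311 bases downstream of that start. The Actg1 promoter is shown for its CArG box. All are on the minus strand of GRCm38.p6, written in the direction of the member gene, and promoter sequences are from RefSeq. Capitals mark matches on either strand to 4 motifs. These are the CArG box, which is the motif of serum response factor, and TATAAA, which is 1 form of the TATA box. The others are GGGCGG, which is known as the GC box, and TGTGGT, which lies in Runx sites. Overlapping matches were kept. The Tmsb10 stretch is chr6:72958749-72958998, the Pfn1 stretch chr11:70654651-70654900, the Actg1 stretch chr11:120348543-120348745 and the downstream peak chr6:72954812-72955111.
Tmsb10 promoter: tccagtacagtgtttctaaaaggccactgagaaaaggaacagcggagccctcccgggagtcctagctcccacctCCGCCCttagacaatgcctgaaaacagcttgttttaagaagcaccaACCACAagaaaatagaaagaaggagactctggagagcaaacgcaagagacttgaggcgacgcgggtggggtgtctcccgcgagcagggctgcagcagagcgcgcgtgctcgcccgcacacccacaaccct
Pfn1 promoter: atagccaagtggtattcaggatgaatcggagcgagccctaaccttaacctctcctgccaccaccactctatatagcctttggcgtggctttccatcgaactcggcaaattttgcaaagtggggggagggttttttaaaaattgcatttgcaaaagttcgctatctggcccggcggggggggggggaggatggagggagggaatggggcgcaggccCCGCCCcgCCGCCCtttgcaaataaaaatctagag
Actg1 promoter: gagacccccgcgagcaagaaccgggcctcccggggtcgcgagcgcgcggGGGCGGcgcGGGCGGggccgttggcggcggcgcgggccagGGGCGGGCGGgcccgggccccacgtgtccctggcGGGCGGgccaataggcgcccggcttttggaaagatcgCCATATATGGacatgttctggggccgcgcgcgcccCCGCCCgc
Tmsb10 downstream peak: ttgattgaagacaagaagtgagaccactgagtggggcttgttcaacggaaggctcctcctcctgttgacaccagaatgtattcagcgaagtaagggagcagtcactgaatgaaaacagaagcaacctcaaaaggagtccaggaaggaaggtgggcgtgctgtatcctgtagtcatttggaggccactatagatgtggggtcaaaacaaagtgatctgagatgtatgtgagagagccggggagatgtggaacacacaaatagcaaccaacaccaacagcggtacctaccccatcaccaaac
The Actg1 stretch held a CArG box that began 90 bases before the RefSeq start, and 6 GC box matches. A CArG box was present in 1.47% of 32817 stretches of 250 bases before a RefSeq start, and a GC box in 32.7%. The Tmsb10 stretch held 1 GC box and 1 TGTGGT match, the latter 130 bases before the start and on the opposite strand, and TGTGGT was present in 14.04% of the stretches. The Pfn1 stretch held 2 GC box matches. TATAAA was in none of these 4 stretches and in 12.4% of all stretches before a start. Other forms of the TATA box were not searched for. Stretches before further RefSeq starts of Tmsb10, which lie partly in exons and are not shown, held 1 and 2 GC box matches and no TATAAA. The downstream peak held none of the 4 motifs. Of 138312 peak centres of 300 bases, 1.26% held a CArG box, 11.9% TATAAA, 16.6% a GC box and 27.5% TGTGGT.

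The scRNA-seq values were log2 values after quantile normalization, and the highest value in a cell was 6.14 or 7.14, so genes near this ceiling could not differ much. Cells had a median of 1484 detected genes. No doublet caller was run, and when the top 5% of each cluster by number of detected genes were left out, the late minus early differences of the members moved by less than 0.25 log2. Clusters were built without the members and without a list of further actin genes, and were named from fixed markers. The 9 classes were DN-like (78 cells), ISP-like (311 cells), DP blast or DPbla-like (341 cells), rearranging or DPre-like (500 cells), DP under selection or DPsel-like (321 cells), CD4sp-like (226 cells), CD8sp-like (149 cells), NCL-like cells with Klrd1, Nkg7 and Id2 (30 cells) and APC-like cells with MHC class II genes (37 cells). The name of cluster 6 (146 cells, ISP-like) rested on a narrow margin, with a mean marker score of 0.31 against 0.15 for DPbla-like, and so did that of cluster 13 (66 of the CD4sp-like cells), with 0.40 against 0.27 for DPsel-like. The median number of detected genes was 2877 for ISP-like cells, 2329 for DPbla-like cells and between 1174.5 and 1942 elsewhere. Below, early cells are the DN-like to DPre-like classes (1230 cells) and late cells the DPsel-like, CD4sp-like and CD8sp-like classes (696 cells).

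Tmsb10 separated early from late thymocytes. The mean log2 value of DN-like cells was 2.46 ± 1.17, that of ISP-like cells 1.79 ± 1.03, that of DPbla-like cells 1.66 ± 0.98 and that of DPre-like cells 1.77 ± 1.25. In the late classes the mean of DPsel-like cells was 5.44 ± 1.32, that of CD4sp-like cells 5.85 ± 0.52 and that of CD8sp-like cells 5.94 ± 0.34. The late mean exceeded the early mean by 3.89 log2, the first rank among 3754 genes above 0 in at least 20% of either group, which is the property it was chosen for. With cells thinned to equal step totals the difference was 2.56. In the typical late cell Tmsb10 was the 2nd highest gene, and in the typical early cell its rank was 206. It was among the 10 highest genes in 91.8% of late and 1.301% of early cells.

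Tmsb10 values above 0 were found in 90.4% of early cells (interval 88.6 to 92.0%) and 99.1% of late cells (98.1 to 99.7%). After each cell was thinned to the same total of 1300 steps, where steps number the distinct values found in a cell from the lowest upward, the shares were 64.2% and 98.7% and the mean levels 1.40 and 11.5 steps. Every class had the gene, so the level that free RNA in the droplets gives could not be read from a class without it, and its part was not tested.

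**Figure D1:**
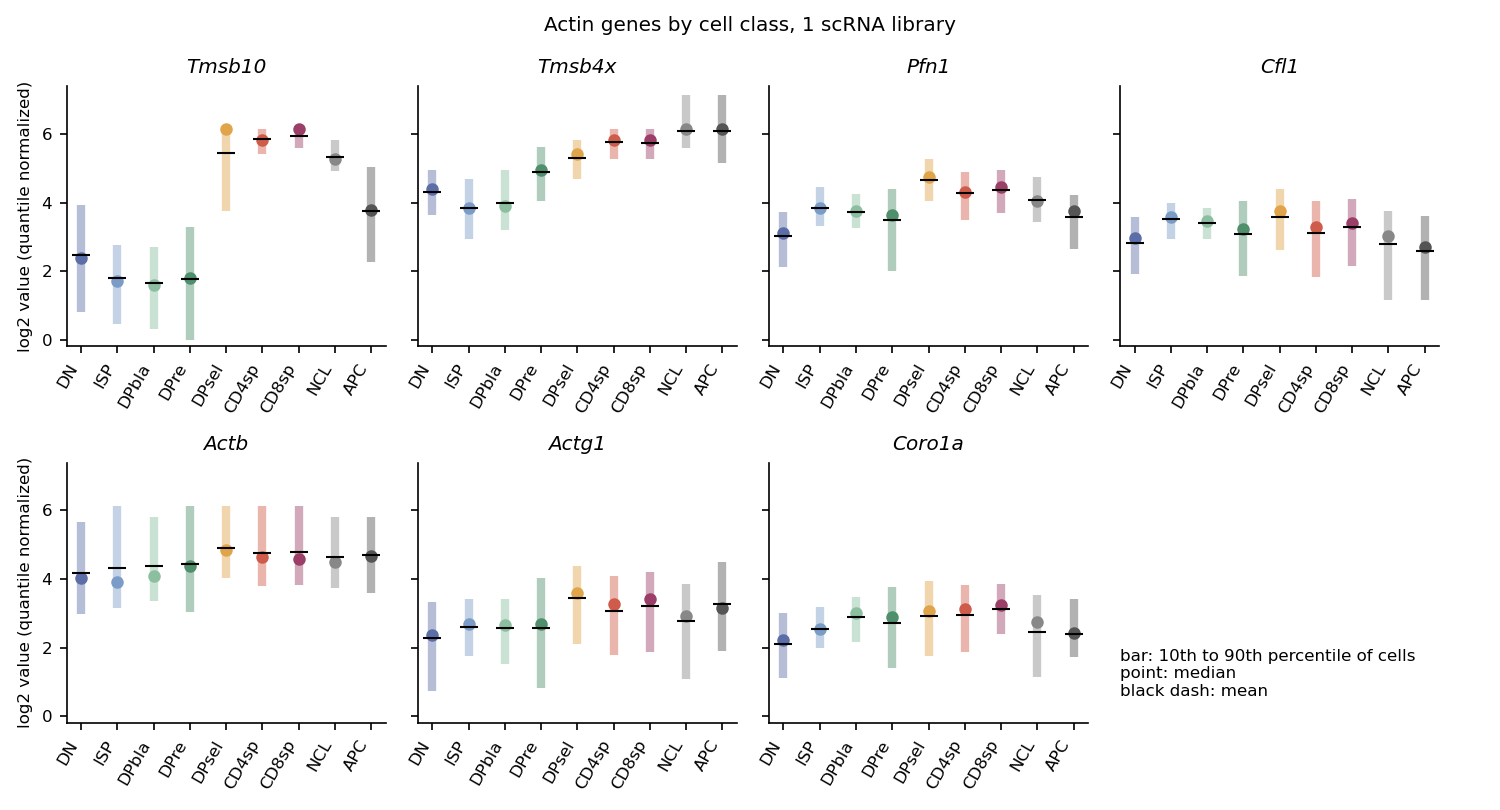
Log2 values (vertical axis, quantile normalized) of the 7 genes in the 9 cell classes of the scRNA-seq library, with bars from the 10th to the 90th percentile of cells, points at the median and dashes at the mean. Tmsb10 medians lie between 1.58 and 2.39 in the 4 early classes and between 5.82 and 6.14 in the 3 late classes, whereas the means of Cfl1, Actb and Coro1a span 0.77, 0.72 and 1.03 log2 over the thymocyte classes.

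Most cells of each early class had Tmsb10 values below 3, with the smallest share in DN-like cells (65.4%). Most late cells had levels near the ceiling of the scale, with a mixture inside the DPsel-like class. Values of 5 or more were reached by between 0.88% (DPbla-like) and 1.61% (ISP-like) of the cells of an early class. The share among DPsel-like cells was 81.0%, among CD4sp-like cells 94.7% and among CD8sp-like cells 98.0%. Levels between 3 and 5 were found in 33.3% of DN-like (26 of 78) and 70.3% of APC-like cells. The limits of these bands were chosen after the values were seen. The DPsel-like class consisted of 2 clusters that differed in this respect. In cluster 4, 99 of 159 cells had values of 5 or more, 38 lay between 3 and 5, and 22 lay below 3. In cluster 2, 161 of 162 cells had values of 5 or more. Their Tmsb10 means were 4.82 and 6.04. Cluster 4 had a mean Cd8a value of 1.78, a Rag1 value of 0.48 and an Itm2a value of 1.19, against 0.67, 0.21 and 3.16 in cluster 2, where Itm2a is a gene induced during positive selection. Among DPre-like clusters, cells between 3 and 5 made up 11.5% of cluster 0, 29.4% of cluster 7 and 21.8% of cluster 8.

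**Figure D2:**
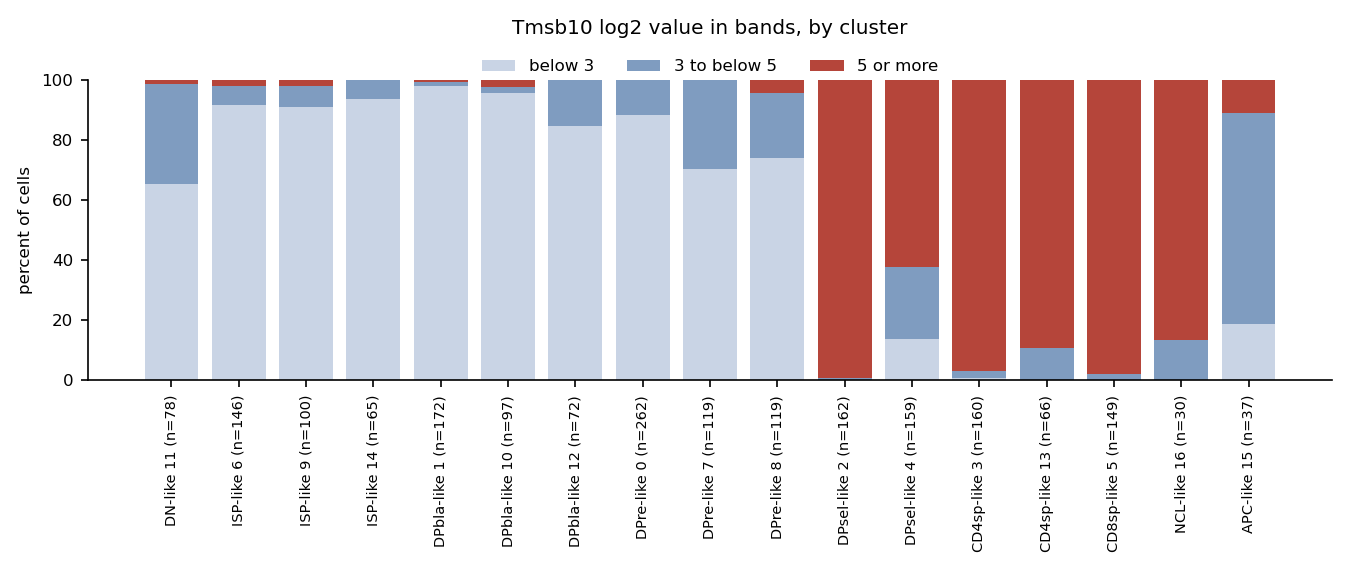
Percent of the cells of each cluster (vertical axis) whose Tmsb10 log2 value was below 3, from 3 to below 5, or 5 or more, with clusters ordered by class on the horizontal axis. Cluster 4 is the thymocyte cluster with sizeable shares in all bands, at 13.8%, 23.9% and 62.3%.

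In order of Tmsb10 level the classes ran DPbla-like, DPre-like, ISP-like, DN-like, APC-like, NCL-like and DPsel-like, and ended with both SP classes, CD4sp-like before CD8sp-like. Only 2 of the 8 gaps between neighbours were larger than both SDs, those from DN-like to APC-like (1.29 log2) and from APC-like to NCL-like (1.59 log2). For the other 6 members none of the 8 gaps was. The range of means over the 7 thymocyte classes was 4.29 for Tmsb10, 1.90 for Tmsb4x, 1.65 for Pfn1, 1.16 for Actg1, 1.03 for Coro1a, 0.77 for Cfl1 and 0.72 for Actb. After thinning to equal step totals some neighbours in the Tmsb10 order changed places. CD4sp-like cells were then highest at 12.4 steps, with CD8sp-like and NCL-like cells at 12.0 and DPsel-like cells at 10.7. ISP-like cells stood below DPre-like cells, at 1.18 and 1.56 steps.

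Tmsb4x, the second beta-thymosin, was present in every cell and differed between classes in smaller steps. The DN-like mean was 4.31 ± 0.50, the ISP-like mean 3.85 ± 0.74, the DPbla-like mean 3.98 ± 0.67 and the DPre-like mean 4.88 ± 0.71. Of the late classes, DPsel-like cells stood at 5.31 ± 0.48, CD4sp-like cells at 5.75 ± 0.45 and CD8sp-like cells at 5.75 ± 0.38. The level was thus already higher in DPre-like than in DPbla-like cells, before the change in Tmsb10. The late minus early difference was 1.21 log2, and 0.66 when DPre-like cells alone stood for early cells. Its highest means were outside the thymocyte classes, 6.10 ± 0.46 in NCL-like and 6.08 ± 0.72 in APC-like cells. Tmsb10 stood lower in both of these, at 5.34 ± 0.37 in NCL-like and 3.75 ± 1.06 in APC-like cells.

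Within single cells the order of both thymosins turned over. For DN-like cells Tmsb10 minus Tmsb4x averaged -1.86 ± 1.13, for ISP-like cells -2.06 ± 1.09, for DPbla-like cells -2.32 ± 1.01 and for DPre-like cells -3.12 ± 1.28. For DPsel-like cells the average was 0.13 ± 1.29, for CD4sp-like cells 0.09 ± 0.62 and for CD8sp-like cells 0.20 ± 0.51. Tmsb10 had the higher value in 20 of 1230 early cells (1.63%, interval 1.00 to 2.50%) and in 473 of 696 late cells (68.0%, 64.4 to 71.4%). It was higher in 3 of 30 NCL-like cells and 0 of 37 APC-like cells. The change in the within-cell difference from early to late cells was 2.68 log2. Levels of both genes were compared as counted 3′ ends, which do not scale with transcript length, on a scale whose ceiling both genes approached in late cells.

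**Figure D3:**
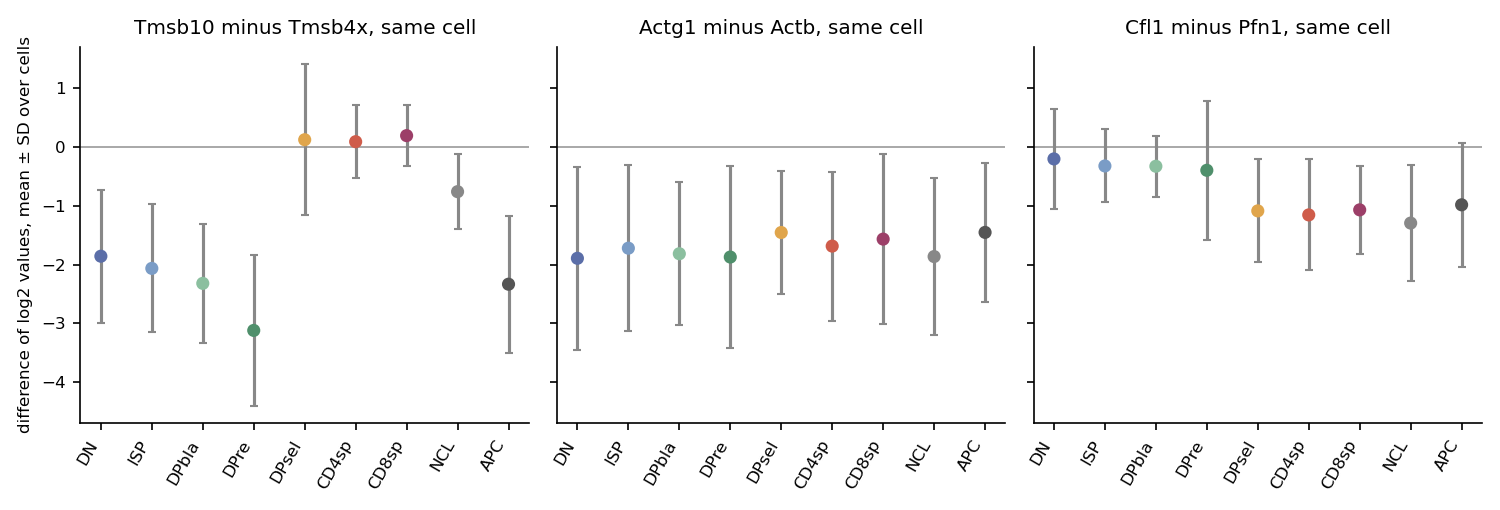
Difference of the log2 values of 2 genes in the same cell (vertical axis, mean ± SD over cells) in the 9 classes, for both thymosins, both actins, and cofilin against profilin. Tmsb10 minus Tmsb4x moves from -3.12 in DPre-like to 0.13 in DPsel-like cells, whereas Actg1 minus Actb stays between -1.89 and -1.45 in all classes.

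Profilin and cofilin, which act on opposite sides of filament turnover, moved the same way from class to class, with a larger late difference in Pfn1. Going from DN-like through ISP-like and DPbla-like to DPre-like cells, the Pfn1 means were 3.02 ± 0.68, 3.83 ± 0.45, 3.74 ± 0.40 and 3.48 ± 0.89. DPsel-like cells had the highest mean, 4.67 ± 0.54, followed by CD8sp-like cells at 4.36 ± 0.50 and CD4sp-like cells at 4.27 ± 0.58. Cfl1 means were 2.82 ± 0.69, 3.51 ± 0.47, 3.41 ± 0.38 and 3.09 ± 0.86 in the early classes in the same order, and 3.59 ± 0.78, 3.11 ± 0.86 and 3.30 ± 0.80 in the late classes. The late minus early difference was 0.86 log2 for Pfn1 and 0.10 for Cfl1. Cfl1 exceeded Pfn1 in 28.1% of early cells (25.6 to 30.7%) and 5.60% of late cells (4.01 to 7.58%).

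Of both actins, Actg1 was higher in late cells by more than 0.5 log2 and Actb by slightly less. Actb means were 4.19 ± 1.13, 4.32 ± 1.24, 4.38 ± 1.06 and 4.43 ± 1.14 in the early classes, and 4.91 ± 0.78, 4.75 ± 0.83 and 4.78 ± 0.95 in the late classes. Actg1 means were 2.29 ± 0.95, 2.60 ± 0.75, 2.57 ± 0.80 and 2.56 ± 1.20, then 3.46 ± 0.92, 3.07 ± 0.98 and 3.21 ± 1.00. The differences between late and early cells were 0.46 log2 for Actb and 0.72 for Actg1, and the within-cell difference Actg1 minus Actb changed by 0.27. Actb exceeded Actg1 in nearly every cell, with Actg1 higher in 6.02% of early and 6.47% of late cells. In each thymocyte class the Actb values ran up to the ceiling of 7.14.

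Coro1a was lowest in DN-like cells and similar over the DP and SP stages. DN-like cells had a mean of 2.11 ± 0.79 and ISP-like cells one of 2.55 ± 0.53. The DP classes followed at 2.89 ± 0.56 (DPbla-like), 2.72 ± 0.96 (DPre-like) and 2.93 ± 0.93 (DPsel-like), and the SP classes at 2.94 ± 0.88 (CD4sp-like) and 3.14 ± 0.65 (CD8sp-like). Within the CD4sp-like class it was 2.60 in cluster 13 and 3.08 in cluster 3. Values of 0 were found in 14 of 1230 early and 10 of 696 late cells. The late minus early difference was 0.30 log2.

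By a difference of at least 0.5 log2, 4 of the 7 genes (Tmsb10, Tmsb4x, Pfn1 and Actg1) were higher in late cells and none was lower. With cells thinned to equal step totals and on log2 of 1 plus steps per 10000 there were 5, with Actb added at 0.55 and 0.58. Over all 3754 genes compared, 1.44% were higher by this size and 3.78% lower, and the median difference was -0.03. Tmsb10 was chosen by this contrast and the other members with earlier results known, so nothing is read from their share. In DPbla-like against DPre-like cells, which were not used for the choice, none of the 7 was higher by 0.5 log2 and 1 was lower. The classes were not cleanly split by division, since the cell cycle gene Mki67 was above 0 in 43.7% of cluster 7, which holds 119 of the 500 DPre-like cells. The background was 6.22% higher and 0.822% lower of 4135 genes. The gene was Tmsb4x, at 0.91 log2 lower in the blasts (difference -0.91), the third lowest of all genes compared. Its mean was 3.73 and 3.85 in clusters 1 and 10 of the blasts, but 4.73 in cluster 12 (72 cells), beside 4.76, 5.11 and 4.93 in the clusters of DPre-like cells. After thinning to equal step totals this difference was -0.62. The other members differed by -0.11 (Tmsb10), 0.26 (Pfn1), 0.33 (Cfl1), -0.04 (Actb), 0.01 (Actg1) and 0.17 (Coro1a). After thinning these were -0.23, 0.12, 0.05, -0.12, -0.24 and -0.07 in the same order, with a change of sign for Actg1 and Coro1a. Between CD8sp-like and CD4sp-like cells no member differed by 0.5 log2, with differences from -0.01 (Tmsb4x) to 0.20 (Coro1a). Those of Tmsb10, Actb and Coro1a changed sign after thinning, to -0.04, -0.02 and -0.002. Of 2567 genes compared, 0.312% were higher and 0.156% lower by that size in CD8sp-like cells.

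Within a class, cells high in 1 member were hardly higher in another. Over the 21 pairs of members in the 7 thymocyte classes, Spearman's correlation across cells had a median of 0.07 and ranged from -0.35 (Tmsb10 with Actb in CD4sp-like cells) to 0.38 (Pfn1 with Cfl1 in CD8sp-like cells), and 127 of the 147 values lay within 0.2 of 0. Cells of a class share 1 library and quantile normalization ties their values together. Over the 7 class means Pearson's r was 0.98 for Actb with Actg1, 0.97 for Pfn1 with Actg1 and 0.91 for Tmsb10 with Tmsb4x, against 0.44 for Cfl1 with Actb, 0.13 for Tmsb10 with Cfl1 and -0.08, the lowest, for Tmsb4x with Cfl1. These values over class means and those over cells are different measures.

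Of 262 genes that varied by at least 1 log2 over the 7 class means, the nearest to Tmsb10 were Cd53 (r = 0.98), Cd52 (0.96), Limd2 (0.96), Cd2 (0.96) and Shisa5 (0.95). Cd53 encodes a tetraspanin, Cd52 a small surface glycoprotein and Cd2 an adhesion receptor of T cells. Their late minus early differences were 1.03, 2.78, 1.09, 1.48 and 1.89 log2. The nearest to Tmsb4x were Gimap6 (0.97), Cd52 (0.96) and Arhgef1 (0.92). Actg1 (0.97), Rgs10 (0.93) and Lef1 (0.93) were nearest to Pfn1, and Actg1 (0.98), Trac (0.98) and Rgs10 (0.98) to Actb. Actg1 was most like Lef1 (0.97), Pfn1 (0.97) and Rgs10 (0.96). Coro1a was most like Pfn1 (0.83), Trac (0.82) and Eno1 (0.78). For Cfl1 the correlation was 0.72 with Ldha and 0.69 with Pfn1.

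Most other genes of the actin machinery differed by less than 0.5 log2 between early and late cells. Of 116 genes in 6 lists, 97 were in the table and 70 were above 0 in at least 20% of early or late cells. Of these 6 were higher and 2 lower in late cells by at least 0.5 log2 (8.57% and 2.86%, against the 1.44% and 3.78% of all genes), with a median of 0.06. In the 9 Arp2/3 genes, whose complex starts branched filaments, the median was 0.09. Arpc2 differed by 0.68, Arpc1b by 0.46, Arpc1a by -0.25 and Arpc3 by -0.20. None of 9 nucleation promoting factors and formins differed by 0.5, the furthest being Brk1 (-0.20), Wasf2 (-0.18), Wipf1 (0.06) and Hcls1 (0.06).

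Among 13 genes of monomer binding, severing and capping, Gmfg, a factor that takes Arp2/3 branches apart, was lower in late cells, at 1.51 ± 1.08 against 2.38 ± 0.89 (-0.87). Cotl1, a filament-binding coactosin, was higher, at 1.04 ± 1.00 against 0.47 ± 0.60 (0.57). Capza2 differed by -0.19 and Twf2 by 0.16. Of the 18 crosslinkers, membrane linkers and myosins, Msn differed by 0.56 and Ezr by -0.52. These encode moesin and ezrin, linkers between filaments and the membrane. The means of moesin were 1.00 ± 0.88 late and 0.44 ± 0.58 early, those of ezrin 0.55 ± 0.68 late and 1.08 ± 0.79 early. Vasp (0.51) and Lcp1 (0.41), a filament elongation factor and a bundling protein, followed. The serum response factor list had 2 genes above the detection limit, Elk3 (0.12) and Elk4 (0.04). With cells thinned to equal step totals 45 listed genes still passed the detection limit and none of them differed by 0.5 log2, against 1.89% higher and 2.33% lower of the 1374 genes then compared.

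**Figure D4:**
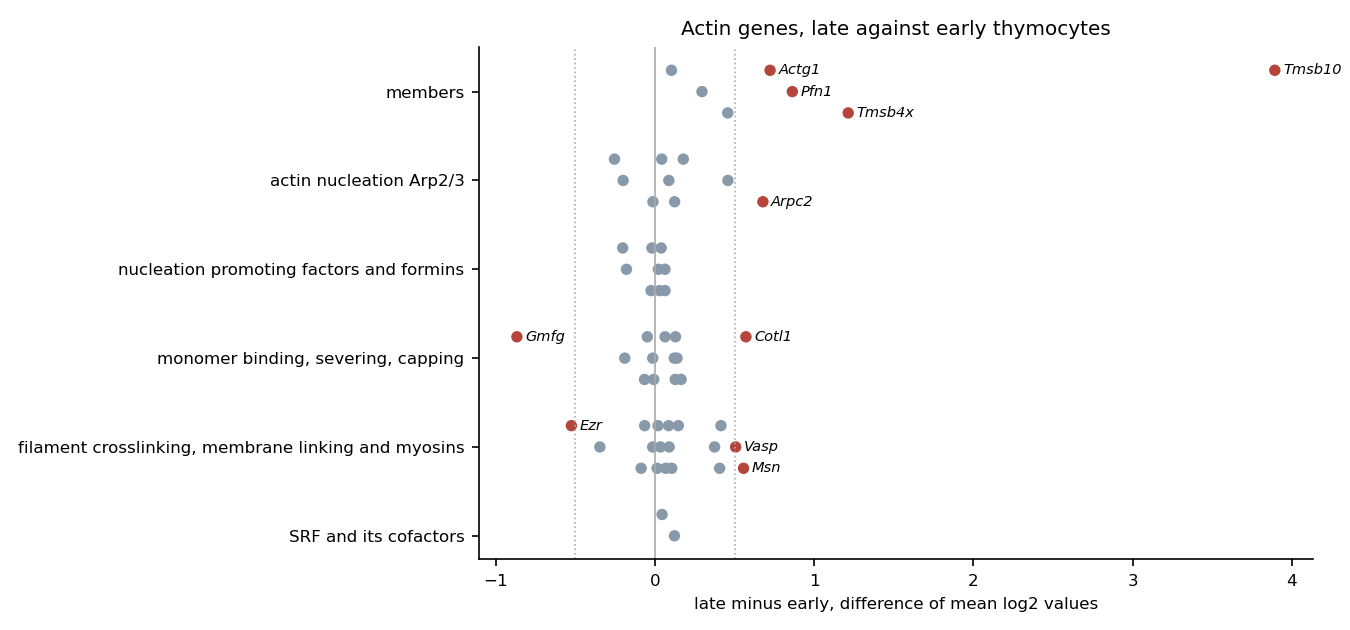
Late minus early difference of mean log2 values (horizontal axis) for the 7 members and the genes of 5 actin lists, 1 point a gene, with dotted lines at -0.5 and 0.5. The genes of these lists run from -0.87 (Gmfg) to 0.68 (Arpc2), and Tmsb10, chosen for this difference, is at 3.89.

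Summed levels of markers of other cells were low in both groups. B cell markers were above 0 in 14.4% of early and 5.75% of late cells, macrophage markers in 30.5% and 22.6%, thymic epithelial markers in 18.5% and 9.48% and erythroid markers in 7.72% and 3.74%, with summed mean levels of at most 0.20 log2 in either group. The summed level went the other way for macrophage markers (0.15 in early and 0.20 in late cells) and erythroid markers (0.03 and 0.05). Their part in the differences was not tested.

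Open chromatin was then read at the member genes, a measurement the choice of Tmsb10 did not use. Counts in peaks summed to 558091 in CD4 sorted, 494645 in CD8 sorted, 1108749 in DN sorted and 478264 in DP sorted cells, and values are given per 10000 counts. Every peak was listed as an interval of 4000 bases in GRCm38 coordinates, and 61.6% of these overlapped the next. The counts cannot belong to the whole of the listed intervals. Of 53108 peaks whose interval was covered by its neighbours on both sides, 19.8% held more counts than both neighbours together. The width over which reads were counted is not given in the sources used here, so peaks are placed by their centres and the listed coordinates serve only to identify them.

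At the promoter of Tmsb10 no difference between SP and DP cells could be seen at this depth. The peak was listed at chr6:72956438-72960437 and centred 38 bases before a transcript start in the 5′ UTR of the gene (chr6:72957347-72958748). It held 0.38 counts per 10000 in CD4 sorted (interval 0.23 to 0.58), 0.16 in CD8 sorted (0.07 to 0.32), 0.25 in DN sorted (0.17 to 0.36) and 0.29 in DP sorted cells (0.16 to 0.49). These rest on 21, 8, 28 and 14 counts. The ratio of CD4 and CD8 sorted to DP sorted cells was 0.94 (0.48 to 1.93), an interval that includes a ratio of 1. Starting from the promoter, peaks within 10000 bases were also taken nearest first, skipping any whose listed interval overlapped one already taken. Over the peaks taken the ratio was 1.65 (1.04 to 2.71) from 87 and 24 counts. The peak centred at position -3695 gave 49 and 8 of these counts. The peak 3341 bases downstream was skipped, and both are described below.

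At the Pfn1 promoter more counts per 10000 were found in both SP sorts than in DP sorted cells, on few counts. Its peak (chr11:70652615-70656614) held 24 counts in CD4 sorted, 19 in CD8 sorted, 28 in DN sorted and 4 in DP sorted cells, or 0.43, 0.38, 0.25 and 0.08 per 10000. A count was seen in 14 of 119, 17 of 116, 15 of 182 and 4 of 125 cells. The SP over DP ratio was 4.88 (1.77 to 18.7), and 5.56 (1.38 to 48.6) within cells with label numbers below 10000. Within label numbers from 30000 it was 3.72 (0.90 to 32.9), which includes 1, and each of these values rests on 2 DP counts. The CD4 sorted level was 0.18 per 10000 below 10000 and 1.51 from 30000. Over the peaks within 10000 bases taken by the rule used for Tmsb10 the ratio was 2.56 (1.44 to 4.90). The 2 nearest peaks upstream of it had ratios of 3.63 (0.49 to 161) and 1.14 (0.19 to 11.9), on 1 and 2 DP counts. Those centred 379, 672 and 956 bases downstream had ratios of 1.36 (0.62 to 3.29), 0.51 (0.18 to 1.52) and 1.02 (0.29 to 4.54). One CD4 sorted cell gave 10 of the 24 counts, and the ratio came to 4.74 without the highest cell of each sort, a setting chosen after the data were seen.

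For the remaining promoters the interval of the ratio included 1. The SP over DP ratios were 0.86 (0.38 to 2.08) for Tmsb4x (chrX:167207227-167211226), 0.80 (0.50 to 1.31) for Cfl1 (chr19:5488439-5492438), 0.56 (0.28 to 1.10) for Actb (chr5:142904762-142908761), 1.298 (0.53 to 3.63) for Actg1 (chr11:120346524-120350523) and 1.02 (0.50 to 2.22) for Coro1a (chr7:126702206-126706205). Of the 7 promoters 1 had a ratio of at least 1.5 and 1, Actb, a ratio of at most 1 over 1.5. Over 7549 promoters with at least 20 counts these shares were 16.7% and 17.4%, and the median ratio was 0.97. The members' shares are near this background. For Actb the ratio was 0.41 (0.18 to 0.89) within label numbers below 10000 and 1.57 (0.31 to 15.1) within those from 30000. Over the peaks taken by the rule used for Tmsb10 it was 0.53 (0.29 to 0.97). The Coro1a promoter peak held 0.38 counts per 10000 in CD4 and 0.12 in CD8 sorted cells, on 21 and 6 counts. Against DP sorted cells the Coro1a ratio was 1.4997 (0.70 to 3.34) for CD4 and 0.48 (0.15 to 1.39) for CD8 sorted cells.

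A peak beyond the 3′ end of Tmsb10 had more counts per 10000 in both SP sorts than in DP sorted cells. Its centre lay 3341 bases downstream of the nearest start, in an exon of the lincRNA gene Gm26640 (listed interval chr6:72952962-72956961). This peak had 61 counts in CD4 sorted, 51 in CD8 sorted, 41 in DN sorted and 11 in DP sorted cells, or 1.09 (0.84 to 1.40), 1.03 (0.77 to 1.36), 0.37 (0.27 to 0.50) and 0.23 (0.11 to 0.41) per 10000. At least 1 count was found in 30.3% of CD4 sorted, 27.6% of CD8 sorted, 17.6% of DN sorted and 6.40% of DP sorted cells, and no cell held more than 5. The ratio of SP to DP sorted cells was 4.63 (2.49 to 9.53), and that of CD8 to CD4 sorted cells 0.94 (0.64 to 1.39). The SP over DP ratio was 4.78 (2.50 to 10.3) within label numbers below 10000 and 3.52 (0.49 to 154) within those from 30000, where DP sorted cells gave 1 count. A peak upstream of Tmsb10, centred at position -3695 relative to the nearest start, held 32, 17, 28 and 8 counts in the same order (ratio 2.78, 1.31 to 6.80). Its ratio was 3.11 (1.40 to 8.17) within label numbers below 10000 and 0.78 (0.04 to 46.2) within those from 30000. Both peaks were singled out after their values were seen.

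Peaks over the 3′ ends of Tmsb4x and Actb behaved differently. A peak centred in the 3′ UTR of Tmsb4x, 1371 bases from the nearest start (chrX:167205457-167209456), held 28 counts in CD4 sorted, 72 in CD8 sorted, 10 in DN sorted and 6 in DP sorted cells. The counts came from 8, 31, 8 and 4 cells, and the 5 highest CD4 sorted cells held 25 of the 28. They also followed the label series, since 27 of the 28 CD4 counts were from labels of 30000 and above and 71 of the 72 CD8 counts from labels below 10000. In the 3′ UTR of Actb (chr5:142901637-142905636) the counts were 40, 27, 25 and 2. The 5 highest cells of a sort held 36 of the 40 CD4 counts, 13 of the 27 CD8 counts and 24 of the 25 DN counts. The ratio of SP to DP sorted cells was 7.57 (3.36 to 21.1) at Tmsb4x, with 16.7 (4.46 to 140) within label numbers below 10000 and 2.74 (0.96 to 10.8) within those from 30000. It was 15.2 (4.05 to 128) at Actb and 4.41 (1.06 to 39.0) within label numbers below 10000, whereas from 30000 DP sorted cells had no count.

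Within 10000 bases of a start of the 7 genes lay 124 peaks, of which 47 had at least 20 counts over the SP and DP sorts. A ratio of at least 2 was found in 15 of them (31.9%), against 12.5% of 13109 such peaks at all protein-coding genes, and a ratio of at most 1 over 2 in 3 (6.38%), against 8.74%. The 15 were 5 at Actb, 4 at Tmsb10, 3 at Tmsb4x, 2 at Actg1 and 1 at Pfn1, and include peaks over the 3′ UTRs with overlapping intervals. Cfl1 and Coro1a had none. Within label numbers below 10000, 12 of the 15 were at a ratio of at least 2. The other 3, all at Actb and centred 1253, 2111 and 2763 bases downstream of the start, came to 1.298, 0.46 and 1.47, from 3.36, 2.12 and 3.71 over all cells.

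**Figure D5:**
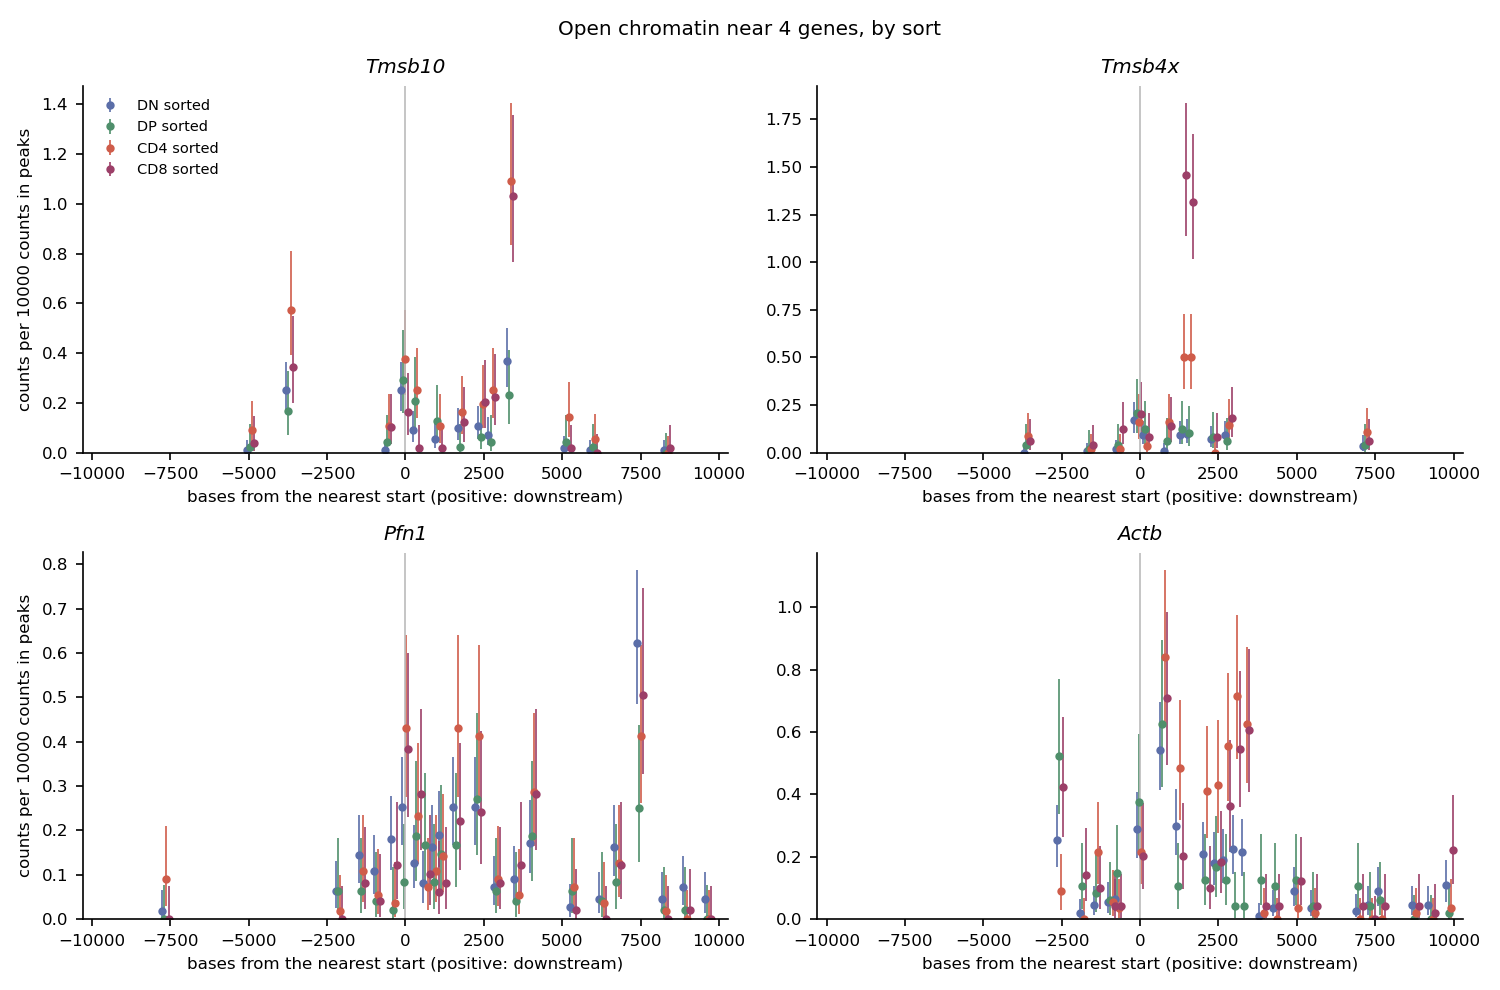
Counts per 10000 counts in peaks (vertical axis, with exact 95% Poisson intervals) in peaks around Tmsb10, Tmsb4x, Pfn1 and Actb, placed by the distance of the peak's centre from the nearest transcript start in bases, for the 4 sorts. At Tmsb10 the CD4 and CD8 sorted cells reach 1.09 and 1.03 at 3341 bases downstream, whereas all 4 sorts lie at or below 0.38 at the promoter.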

How the data were processed

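The members and gene lists were chosen with earlier results of these data known. For scRNA-seq the authors aligned reads with Cell Ranger 1.3.1 to GRCm38.p5, filtered cells and genes, removed pseudogenes and deposited log2 values after quantile normalization. Whether reads shared between a gene and its processed copies were dropped is not given in the sources used here. For scATAC-seq the authors deposited counts per peak and cell. Peaks were called on all cells together. The build of that table is not given in the sources used here. It was taken as GRCm38, since 26.0% of peak centres lay within 2000 bases of a GENCODE vM21 start and 7.71% after a shift of 100000 bases. Of the scATAC-seq cells 542 were used and 1446, total thymocytes and cells without a sort, were not analysed here, although total thymocytes had been planned.

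Clusters came from Seurat 5.3.0 in R 4.3.3 (1287 variable genes, 20 components, resolution 2, 17 clusters), and no member was a variable gene. Clusters were named by whichever class scored highest on its markers, with ISP-like and DPbla-like kept for clusters with Mki67 in at least 50% of cells. Contrasts were differences of mean log2 values over genes above 0 in at least 20% of either group. Promoter peaks had the centre nearest a start, within 2000 bases. Ratio intervals are exact conditional binomial. Scripts were tested on simulated data. The named genes were the 7 members, the 5 (Tmsb10) or 3 genes with the highest Pearson correlation of class means, no cell type markers, and up to 4 genes a list with the largest late minus early difference in size. Sums of counts of single cells are not independent molecules. Depth ranged from 1 to 29445 counts per scATAC-seq cell and from 830 to 5025 detected genes per scRNA-seq cell. Results for 1 gene and for 1 list are not reported here, although the counts over all lists include that list.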

Additional observations from a re-analysis of the deposited data

How the results depend on the processing

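Of 197 values under alternatives, 182 stayed within 0.25 log2 of the reported difference, within the interval of the reported ratio or within 1.5 times the reported count, 15 moved further and none of the differences of at least 0.5 log2 changed sign. The intervals of the promoter ratios are wide, so a value inside one can still differ much. Over non-overlapping peaks Tmsb10 was at 1.65 against 0.94 and Pfn1 at 2.56 against 4.88, and both counted as unchanged. With cells thinned to equal step totals, the late minus early difference was 2.56 for Tmsb10 and 0.85 for Tmsb4x, the DPbla minus DPre difference was -0.62 for Tmsb4x, 0.052 for Cfl1 and -0.24 for Actg1, and of 45 listed actin genes still compared 0 were higher and 0 lower in late cells, against 1.89% and 2.33% of all genes. On log2 of 1 plus steps per 10000, the late minus early difference was 3.38 for Tmsb10 and 0.93 for Tmsb4x, and 9 listed genes were higher and 4 lower in late cells, against 3.46% and 9.86% of all genes, whose median was -0.14. With DPre-like cells alone as early cells Tmsb4x differed by 0.66. With label numbers from 30000 alone, the promoter ratio was 0.28 for Cfl1, 1.57 for Actb and 0.39 for Coro1a. These rest on 5 SP and 7 DP counts, 8 and 2 counts, and 1 and 1 counts. No ratio could be given for Tmsb10, for which DP sorted cells had no counts there. With CD8 sorted cells alone it was 0.48 for Coro1a. The causes were not tested. Resolution 1 gave no CD8sp-like class and so no contrast with CD4sp-like cells. Counting cluster 6 as DPbla-like, and leaving out the cell with the most counts in each sort, were chosen after seeing the data and moved no value. No paired analysis was possible because each group counts as 1 sample. The promoter ratios over all label numbers and both SP sorts rest on 4 to 51 counts a side, and some of those under alternatives on fewer. Ratios under about the width of their intervals could not be seen at this depth.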

Other observations

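Counts over the 3′ UTRs of Tmsb4x and Actb were found in part in the same cells. Of 27 CD4 or CD8 sorted cells with a count in the Actb peak, 10 (37.0%) also had one in the Tmsb4x peak, against 13.9% of the cells without an Actb count. By sort, the shares were 33.3% (3 of 9) against 4.55% in CD4 sorted and 38.9% (7 of 18) against 24.5% in CD8 sorted cells. The 10 cells had a median of 5982 counts in peaks against 3343 in the other SP sorted cells. Whether depth accounts for the overlap was not tested.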
